A study of Arabidopsis thaliana with 12 samples.

Results

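HEMA3, CHLM and CHLP encode enzymes of tetrapyrrole and chlorophyll synthesis, and their transcripts were measured in the Arabidopsis thaliana pete1 mutant and in the wild type (WT). They were chosen by name as genes of the pathway, with earlier results of these data known. Each has an array probe annotated to that gene alone, and they are 3 of 691 genes with such a probe on an array of 3439 probes. Total RNA of 12 samples was hybridised to expression arrays, 6 from WT and 6 from pete1, a mutant without an isoform of plastocyanin, a copper protein that brings electrons to photosystem I. Both genotypes were of ecotype Columbia 0, raised on MS medium, which is widely used for plant culture. Samples carry the numbers 1 to 6 in each genotype. The labels name no tissue, plant age or pete1 allele, and do not say whether samples came from separate plants, so the p-values rest on the spread between these samples alone and that spread may be technical.

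Tetrapyrrole synthesis in plastids starts from glutamate bound to its transfer RNA and branches at protoporphyrin IX. Insertion of magnesium leads to chlorophyll, and insertion of iron leads to heme and the bilins. The pathway is held in balance with the pigment-binding proteins of the thylakoid, because free intermediates are phototoxic. HEMA3 (AT2G31250) is an isoform of glutamyl-tRNA reductase, which catalyses the committed first part of the common route and is a main point of its control. CHLM (AT4G25080) is magnesium-protoporphyrin IX methyltransferase, which acts just after magnesium has been inserted. CHLP (AT1G74470) is geranylgeranyl reductase, which makes the phytyl chain attached to chlorophyll at the end of the branch and also used for tocopherol.

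The deposited values are linear intensities, with a mean near 1 in each sample. Sample medians were 0.485 to 0.627 in WT and 0.279 to 0.331 in pete1. Consecutive numbers of a genotype (1 and 2, 3 and 4, 5 and 6) were more alike than other samples of that genotype, with Spearman correlations across probes of 0.955 to 0.980 against 0.849 to 0.901. The labels do not say what consecutive numbers share. PETE1 itself had no probe of its own and is not analysed here, which left no check of the genotype labels by that transcript. Because the sample medians differed, log2 values were quantile normalised before the test, and "normalised" below refers to that scale. The position of a probe within its sample is also given, as its percentile among the 3439 probes.

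None of the 3 genes passed the threshold in pete1 against WT, where 21.7% of all 3439 probes did (limma, two-sided, Benjamini-Hochberg adjusted p under 0.05). So few genes say little beside that share. The estimates on the normalised log2 scale lay above 0 for HEMA3, CHLM and CHLP, and each 95% confidence interval included 0. Transcripts of HEMA3 and CHLM were at their highest in pete1 samples 1 and 2 and far lower in the other 4 pete1 samples. For CHLP, those same samples 1 and 2 were the lowest of the pete1 samples, though not of all samples. In RNA of whole samples, fewer cells of a type and less RNA per cell cannot be told apart.

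HEMA3, at the entry of the pathway, had deposited intensities from 0.882 to 1.34 in WT, with a median of 1.25, and from 0.854 to 2.63 in pete1, with a median of 0.981. Samples 1 and 2 of pete1 stood at 2.26 and 2.63, above every WT sample, and the other pete1 samples lay between 0.854 and 0.987. The mean was therefore higher in pete1, at 1.44 ± 0.786 (SD, n = 6) against 1.15 ± 0.207, while the median was lower.

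After normalisation HEMA3 was at -0.05 ± 0.29 in WT and 0.50 ± 0.58 in pete1 (log2, SD, n = 6), with overlapping groups. Its log2 fold change was 0.56 with a standard error of 0.26, a 95% interval from -0.0047 to 1.12 and a limma adjusted p of 0.146. Between samples of the same number, pete1 was higher in 5 of 6 after normalisation and in 3 of 6 as deposited. The normalised difference averaged 1.26 in numbers 1 and 2, -0.03 in numbers 3 and 4, and 0.44 in numbers 5 and 6. Without numbers 1 and 2, a setting chosen after seeing the data, the log2 fold change was 0.20 (limma adjusted p = 0.508).

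HEMA3 ranked high in its samples, between the 72.6th and 85.3rd percentile in WT and between the 80.3rd and 94.0th in pete1. Whether transcripts of the related genes HEMA1 and HEMA2, neither of which had a probe of its own in the annotation used, also bind the HEMA3 probe was not tested.

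CHLM, the methyltransferase of the chlorophyll branch, had deposited intensities from 0.479 to 0.839 in WT, with a median of 0.751, and from 0.243 to 1.22 in pete1, with a median of 0.456. The 6 pete1 values fell apart by consecutive number, at 1.11 and 1.22 in samples 1 and 2, 0.243 and 0.250 in samples 3 and 4, and 0.467 and 0.446 in samples 5 and 6. On this deposited scale, those of pete1 1 and 2 lay above all WT samples and those of the other 4 below all of them. After normalisation pete1 5 and 6, at -0.81 and -0.87, lay within the WT range of -1.33 to -0.65 (log2). On neither scale were the genotypes separated. The mean deposited intensity of CHLM was 0.703 ± 0.145 in WT and 0.622 ± 0.431 in pete1 (SD, n = 6).

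The normalised log2 fold change of CHLM was 0.18 with a standard error of 0.36, a 95% interval from -0.61 to 0.97 and a limma adjusted p of 0.770. The direction followed the scaling. As deposited, the log2 fold change was -0.44 (limma adjusted p = 0.392), where the median over all 3439 probes was -0.73. Pete1 was higher than the WT sample of the same number in 2 of 6 numbers, on either scale. The normalised difference averaged 1.12 in numbers 1 and 2, -0.42 in numbers 3 and 4, and -0.18 in numbers 5 and 6. Without numbers 1 and 2 the sign turned, to -0.30 on the log2 scale (limma adjusted p = 0.486). It also turned without pete1 sample 1 (-0.03) or sample 2 (-0.04).

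**Figure D1:**
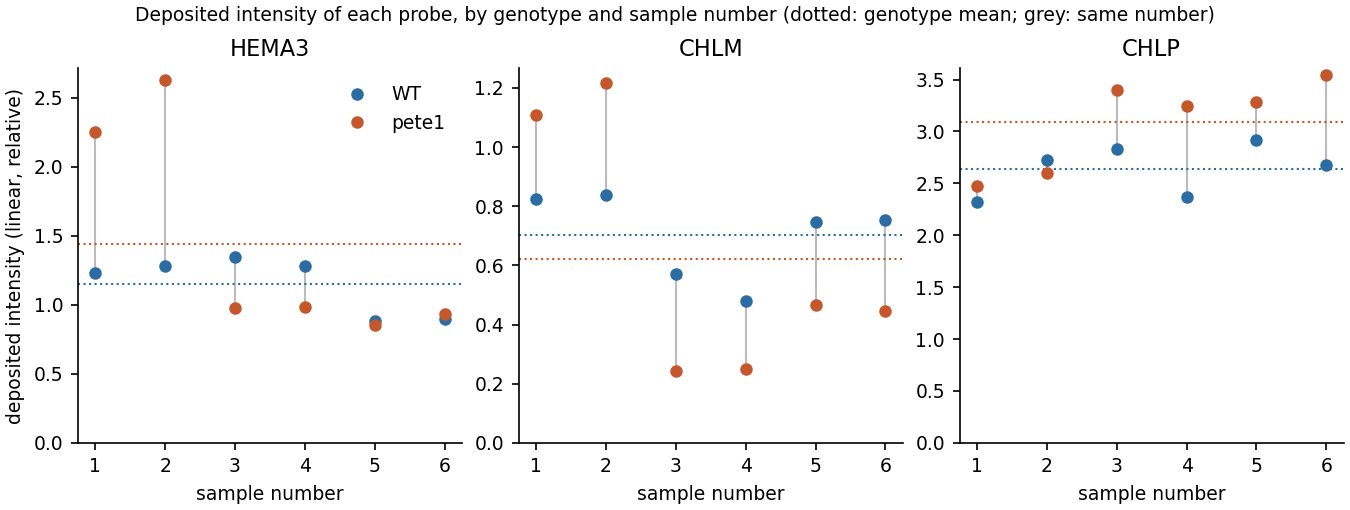
Deposited intensity (linear, relative units) of HEMA3, CHLM and CHLP against the sample number, with 6 WT and 6 pete1 samples as points, a dotted line at each genotype mean and a grey line joining equal numbers. HEMA3 and CHLM were highest in pete1 1 and 2, at 2.26 and 2.63 and at 1.11 and 1.22, while CHLP was lowest there among the pete1 samples, at 2.47 and 2.60.

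CHLP, the geranylgeranyl reductase, varied less between samples on the normalised log2 scale than HEMA3 or CHLM. Its deposited intensity ran from 2.32 to 2.91 in WT, with a median of 2.70, and from 2.47 to 3.55 in pete1, with a median of 3.26. Samples 3 to 6 of pete1, at 3.25 to 3.55, lay above every WT sample, and pete1 1 and 2, at 2.47 and 2.60, lay within the WT range. The mean was 2.64 ± 0.243 in WT and 3.09 ± 0.446 in pete1 (SD, n = 6).

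Its normalised log2 fold change was 0.24 with a standard error of 0.13, a 95% interval from -0.04 to 0.52 and a limma adjusted p of 0.201. As deposited it was nearly the same size, at 0.22 (limma adjusted p = 0.106). In 5 of 6 numbers pete1 was above WT on both scales. The normalised difference averaged -0.03 in numbers 1 and 2, 0.48 in numbers 3 and 4, and 0.27 in numbers 5 and 6. Without numbers 1 and 2 the log2 fold change was 0.39 and passed the threshold (limma adjusted p = 0.0479), as did 16.1% of all probes. CHLP stood near the top of its samples in both genotypes, from the 92.9th to the 95.4th percentile in WT and from the 93.9th to the 96.1st in pete1. With percentiles as the measure, the difference was 1.03 percentile points (limma adjusted p = 0.431).

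The estimates of all 3 genes depended on the scaling. Against the median of all probes as deposited (-0.73), HEMA3 lay 0.91 higher, CHLM 0.29 higher and CHLP 0.95 higher on the log2 scale. Setting the sample medians equal therefore moved the calls. HEMA3 passed there, at 0.99 on the log2 scale (limma adjusted p = 0.0461), as did CHLP with 1.03 (limma adjusted p = 8.15e-05), while CHLM did not, with 0.37 (limma adjusted p = 0.526). In that setting 29.7% of all probes passed, 19.3% higher in pete1. Over all 12 samples neither call was made with quantile normalisation, with percentiles or in the intensities as deposited, where 54.1% of all probes passed.

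A fit with consecutive numbers as a random block allows for their likeness by the same correlation for all probes (consensus correlation 0.811). In pete1 the pair means of CHLM had an SD of 0.98, beside 0.04 within pairs, so the shared value may understate its likeness. With this block the intervals were -0.04 to 1.16 for HEMA3, -0.66 to 1.01 for CHLM and -0.18 to 0.67 for CHLP. The limma adjusted p there were 0.294, 0.884 and 0.554, and 4.74% of all probes passed. With consecutive numbers averaged to 3 against 3, the intervals widened to -0.43 to 1.55, -1.20 to 1.55 and -0.25 to 0.73.

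**Figure D2:**
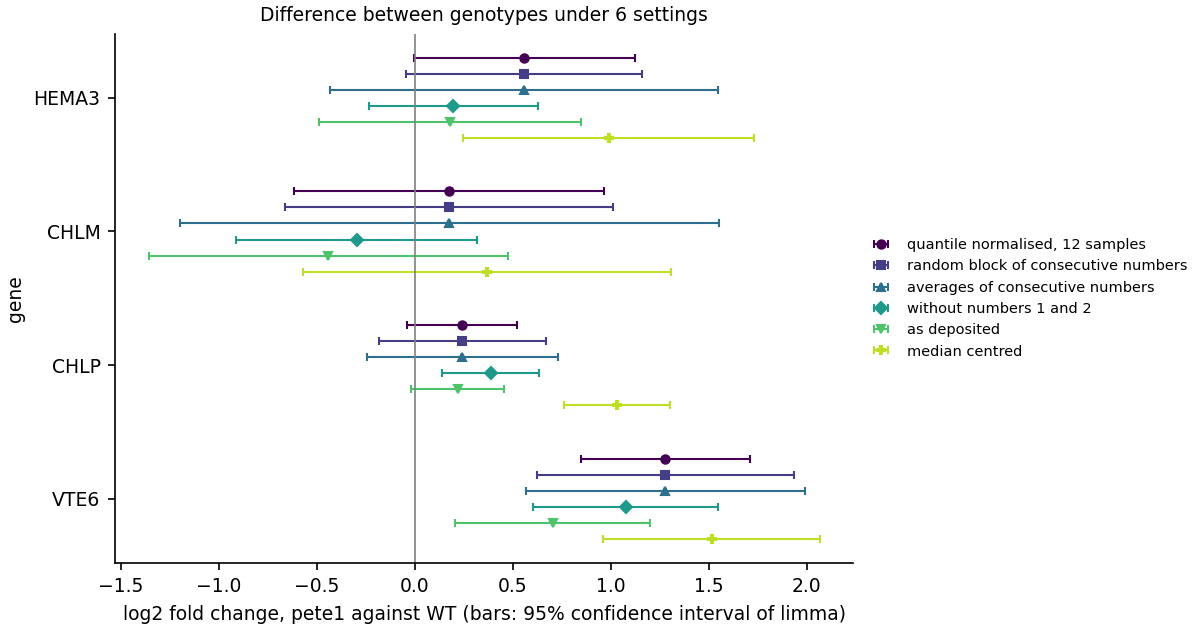
Log2 fold change of pete1 against WT for HEMA3, CHLM, CHLP and VTE6 under 6 settings, with bars for the 95% confidence interval of limma. The CHLM estimate lies on both sides of 0 (0.18 after quantile normalisation, -0.44 as deposited), and that of VTE6 stays above 0 in all 6.

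The spread within pete1 set CHLM and HEMA3 apart from CHLP. CHLM spanned 1.99 log2 units over the 6 pete1 samples and 0.68 over the 6 WT samples. Of the 2942 probes above 0 in every sample, 90.7% had a smaller range in pete1 and 33.7% a smaller one in WT. HEMA3 spanned 1.33 units in pete1 and 0.69 in WT, with smaller ranges in 74.5% and 35.4% of those probes. CHLP spanned 0.54 and 0.48 units, less than most probes in either genotype, since only 19.6% and 17.0% had smaller ranges. The median range over those probes was 0.86 units in pete1 and 0.85 in WT.

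Nearly all of this spread in pete1 lay between consecutive pairs of numbers and little within them. For CHLM the 2 samples of a consecutive pair differed by at most 0.07 log2 units in pete1, and the 3 pair means had an SD of 0.98. The largest gap within a pete1 pair was 0.16 units for HEMA3 and 0.03 for CHLP, against SDs of the pair means of 0.64 and 0.28. In WT the largest gaps within a pair were 0.11 units for HEMA3, 0.29 for CHLM and 0.25 for CHLP. For CHLP in WT the gaps within pairs ran from 0.15 to 0.25 units, beside an SD of the pair means of 0.15.

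Samples 1 and 2 held both highest values of pete1 at HEMA3 and CHLM, as at 17.5% of the 2942 probes, and both lowest at CHLP, as at 32.8%. In WT, on the normalised scale, numbers 3 and 4 held the highest HEMA3 values, as at 23.5% of those probes, and the lowest CHLM values, as at 21.9%. Numbers 5 and 6 of WT held the highest CHLM and CHLP values, as at 22.3%, and the lowest of HEMA3, as at 24.8%. The order in WT followed the scale, since the deposited intensity of CHLM was highest in WT 1 and 2, at 0.825 and 0.839, the same numbers as in pete1.

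**Figure D3:**
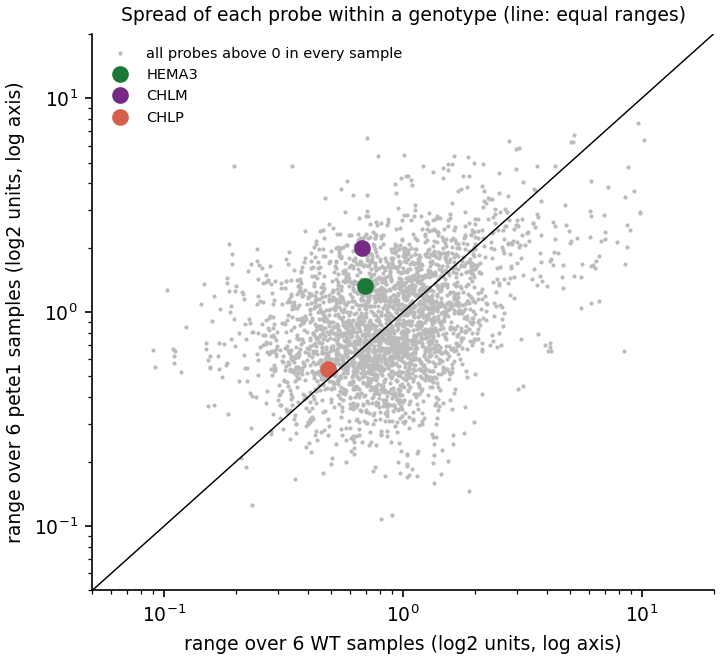
Range of each probe (highest minus lowest normalised log2 value, both axes logarithmic) over 6 WT and over 6 pete1 samples, for 2942 probes above 0 in every sample in grey, with HEMA3, CHLM and CHLP in colour and a line at equal ranges. CHLM (0.68 against 1.99) and HEMA3 (0.69 against 1.33) lie above the line, and CHLP (0.48 against 0.54) lies close to it.

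The rest of the pathway was thinly covered. Lists of 75 loci in 6 groups held 6 with a probe of their own, and 55 of the loci belonged to tetrapyrrole synthesis, its regulation or chlorophyll breakdown, of which 5 had such a probe. None of these 5 passed, where 21.7% of all 3439 probes did, and so few loci say little beside that share. The median log2 fold change of the 5 was 0.19, against -0.01 over all 3439 probes, and -0.44 as deposited, against -0.73. By group, 2 of 16 loci of the common route, 2 of 15 of the chlorophyll branch and 1 of 9 of the heme, bilin and siroheme branches had a probe of their own. None of 5 regulators and none of 10 loci of chlorophyll breakdown did. A further 4 probes were annotated to several genes that include a listed locus, and none of these passed either, with log2 fold changes from 0.04 to 0.29 and limma adjusted p of at least 0.280.

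In the common route, AT5G63290, listed here as HEMN1 for its likeness to bacterial coproporphyrinogen oxidases that work without oxygen, was at 1.27 to 1.78 in WT and 0.870 to 1.43 in pete1 (deposited intensity). Its normalised log2 fold change was -0.08 (limma adjusted p = 0.731). As deposited it was lower in pete1, by -0.44 on the log2 scale (limma adjusted p = 0.0321), in a setting where 50.8% of all probes were called lower, and its sign turned after median centring (0.38, limma adjusted p = 0.0459). Its pete1 samples 5 and 6, at 1.43 and 1.39, stood above the other 4.

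SIRB (AT1G50170), the ferrochelatase that completes siroheme, was dim, between the 9.74th and 23.2nd percentile in WT and between the 13.1st and 20.9th in pete1. Its deposited intensity went from 0.200 ± 0.0865 in WT to 0.0858 ± 0.0160 in pete1 (SD, n = 6), and pete1 was lower in all 6 numbers. That log2 difference of -1.10 passed (limma adjusted p = 0.0104), but after normalisation it was 0.19 (limma adjusted p = 0.712). Among the settings run, the call for SIRB was made only on the deposited scale, where 50.8% of all probes were called lower.

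VTE6 (AT1G78620), which phosphorylates phytyl phosphate for tocopherol and so draws on the same phytyl chain that CHLP makes, rose in pete1. It was the single locus with a probe of its own among 20 of plastid isoprenoid, tocopherol and carotenoid synthesis. Its deposited intensity ran from 0.487 to 0.703 in WT, with a median of 0.577, and from 0.616 to 1.61 in pete1, with a median of 0.985. Samples 5 and 6 of pete1, at 0.616 and 0.627, lay within the WT range, and the other 4 lay above it. After normalisation the groups no longer overlapped, with WT from -1.38 to -1.04 and pete1 from -0.47 to 0.75 on the log2 scale.

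The log2 fold change of VTE6 was 1.28 with a standard error of 0.20, a 95% interval from 0.85 to 1.71 and a limma adjusted p of 0.00153, where 10.7% of all probes were called higher. Pete1 was above WT in all 6 numbers, by 1.67 in numbers 1 and 2, 1.39 in numbers 3 and 4 and 0.78 in numbers 5 and 6 on average. The probe moved from between the 47.8th and 56.7th percentile in WT to between the 70.9th and 90.0th in pete1. As deposited the log2 fold change was 0.70 and passed (limma adjusted p = 0.0219), where 3.34% of all probes were called higher. It also passed with the random block (limma adjusted p = 0.0386), where 2.76% of all probes were called higher. Without numbers 1 and 2, a setting chosen after seeing the data, VTE6 passed as well (1.08, limma adjusted p = 0.0144). There 9.36% of all probes were called higher. With averages of consecutive numbers it did not pass (limma adjusted p = 0.165), a setting in which 0.204% of all probes passed.

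**Figure D4:**
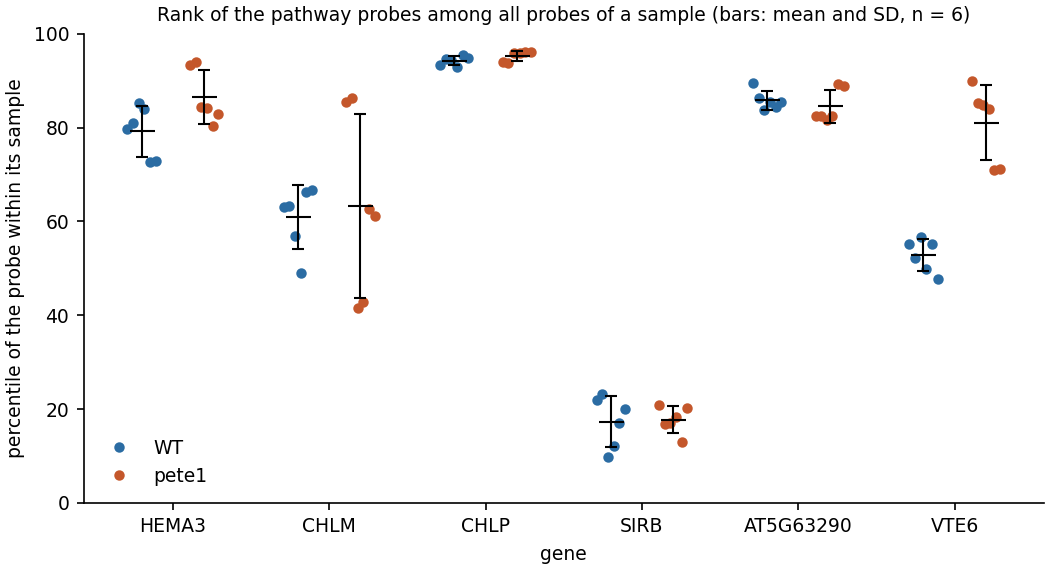
Percentile of 6 pathway probes among all probes of a sample, for 6 WT and 6 pete1 samples as points, with the mean and SD in black. CHLP stays above the 92nd percentile throughout, CHLM spreads from the 41.6th to the 86.2nd in pete1, and VTE6 is higher in every pete1 sample than in any WT sample.

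Apart from the percentiles within a sample, the levels of different probes were not compared with each other, but the profiles over the 12 samples were. Likeness was measured as the root mean square difference between normalised log2 values after each probe's mean was removed, over 592 other single-gene probes above 0 in every sample. Probes picked this way share the member's profile, its extreme samples and much of its fold change by construction. Nearest to HEMA3 were AT4G29890 (0.17 log2 units), DME (0.18), a DNA glycosylase that removes methylated cytosine, and AT4G25290 (0.20), against a median of 0.68 over the 592. None of them passed, with log2 fold changes of 0.49, 0.55 and 0.47 and limma adjusted p of 0.152, 0.126 and 0.379. AT4G29890 passed after median centring (limma adjusted p = 0.0195), as did HEMA3 and 29.7% of all probes. DME passed without numbers 5 and 6 (limma adjusted p = 0.0472), as did 16.0% of all probes, in a setting chosen after seeing the data.

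CHLM had less close neighbours, at 0.23 for Cpn60beta4, a subunit of the plastid chaperonin, 0.31 for AT2G46850 and 0.31 for AT5G59400, against a median of 0.76. These 3 had log2 fold changes of 0.10, 0.20 and 0.14 and did not pass (limma adjusted p of 0.861, 0.717 and 0.769). As deposited, Cpn60beta4 (-0.84) and AT5G59400 (-0.76) passed as lower in pete1 (limma adjusted p of 0.0372 and 0.0483). In that setting 50.8% of all probes were called lower, and the median over all probes was -0.73. Cpn60beta4 was also called lower without numbers 1 and 2 (-0.34, limma adjusted p = 0.0379), as were 6.75% of all probes. The ranges of the 3 over pete1 were 1.56, 1.82 and 1.50 log2 units against 0.37, 0.55 and 0.54 in WT.

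CHLP was followed most closely by AT4G13680 (0.13 log2 units), AT1G68660 (0.14), the adaptor ClpS of the plastid Clp protease, and AT1G21660 (0.16), against a median of 0.49. AT1G21660 rose by 0.40 on the log2 scale (limma adjusted p = 0.0380), where 10.7% of all probes were called higher. Its pete1 value was above that of WT in all 6 numbers. The call was kept in 3 of 12 fits that each left out a sample, and was lost with percentiles, with the filter on zeros and with a trend and robust prior (limma adjusted p of 0.150, 0.0563 and 0.0501). AT1G68660 rose by 0.24 (limma adjusted p = 0.0498), a direction that turned as deposited (-0.28, limma adjusted p = 0.0268), where 50.8% of all probes were called lower. Its call was also kept in 3 of those 12 fits, and a block for the sample number ended it (limma adjusted p = 0.112). The filter on zeros and the trend and robust prior ended it too (limma adjusted p of 0.171 and 0.121). AT4G13680, at 0.14 on the log2 scale, was not called (limma adjusted p = 0.480). After median centring it passed (limma adjusted p = 0.000963), as did 29.7% of all probes. Neither rise passed once consecutive numbers were a random block.

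**Figure D5:**
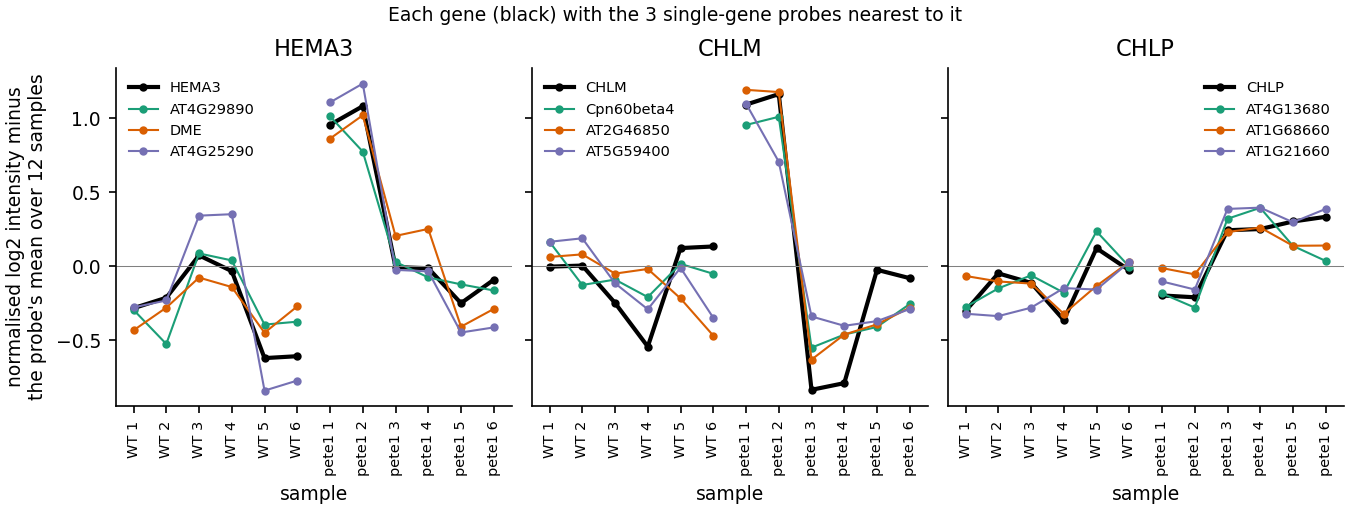
Normalised log2 intensity minus each probe's mean over 12 samples, for HEMA3, CHLM and CHLP (black) and the 3 single-gene probes nearest to each (colour), with WT 1 to 6 and then pete1 1 to 6 along the axis. The probes near HEMA3 and CHLM are highest in pete1 1 and 2, and those near CHLP are lowest there among the pete1 samples, a likeness that the choice of the probes fixes.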

How the data were processed

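Per the labels, total RNA of 6 WT and 6 pete1 samples was profiled on arrays. The deposited values are linear intensities, 1 per probe and sample, up to 100 and with zeros in every sample (170 to 293 of 3439 probes). How the authors read the arrays, corrected background and scaled is not given in the sources used here, and the number of arrays limits the precision. Of 3439 probes, the platform annotation gave 1 gene to 692 (690 matched the RefSeq gene table of TAIR10.1), several to 870 and none to 1877. The smallest positive intensity (4.74e-05) was added before log2, and the log2 values were quantile normalised because sample medians differed up to 2.25-fold. Then limma 3.58.1 (R 4.3.3, statmod 1.5.0) was fitted over all probes, pete1 against WT, with a threshold of 0.05. The fits were tested on simulated data in which all samples were independent, so the likeness of consecutive numbers was not covered.

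Equally numbered WT and pete1 samples deviated together from their genotype means (r across probes 0.221 to 0.452 in the 6 pairs). The titles' numbers were therefore taken as pairing the samples, and the fit was repeated with a block for the number. No such values for unequal numbers are given, so pairing by single number and pairing by consecutive numbers were not told apart. As consecutive numbers were alike, counts over the 6 numbers may not rest on 6 independent pairs. Alternatives covered scaling, a larger offset (0.0514), a filter on zeros, consecutive numbers averaged or as a random block, and each sample left out.

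The members and lists were chosen with earlier results of these data known. Named genes were the 3 members, every other single-gene probe of the lists, and the 3 probes nearest to each member. No coordinates are given, as the value table names no genome build.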

Additional observations from a re-analysis of the deposited data

How the results depend on the processing

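Numbers in parentheses are log2 fold changes unless stated, and why a value moved was not tested. Settings that drop a pair of numbers, or that take the pair as a block in averages, were chosen after seeing the data. Against 746 probes, the count was 1861 as deposited, 163 with the random block, 7 with consecutive numbers averaged (563 at an unadjusted limma p under 0.05), 363 with averages as deposited, and 0 with averages and the pair as a block (591 likewise). Leaving out 1 sample gave 550 to 722. With the number as a replicate block it was 743, and that block ended the call of AT1G68660 (limma adjusted p = 0.112) and no other of the named genes. The tetrapyrrole loci past the threshold went from 0 of 5 to 2 as deposited (SIRB and AT5G63290), 3 after median centring (HEMA3, CHLP and AT5G63290, with 1021 of all probes) and 1 without numbers 1 and 2 (CHLP, with 554 of all probes), and stayed at 0 on leaving out 1 sample.

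HEMA3 passed after median centring (0.99), CHLP there (1.03) and without numbers 1 and 2 (0.39). CHLM turned as deposited, averaged or not (-0.44), and without numbers 1 and 2 (-0.30). On leaving out 1 sample HEMA3 stayed between 0.39 and 0.66, CHLM between -0.040 and 0.36 and CHLP between 0.20 and 0.30, none with a call. As deposited, averaged or not, the sign also turned for SIRB (-1.10), Cpn60beta4 (-0.84), AT5G59400 (-0.76), AT2G46850 (-0.55), AT1G68660 (-0.28), DME (-0.10) and AT4G25290 (-0.033). Median centring turned SIRB (-0.29), Cpn60beta4 (-0.032) and AT5G63290 (0.38). Without numbers 1 and 2, Cpn60beta4 (-0.34, passing), AT2G46850 (-0.25), AT5G59400 (-0.16) and AT5G63290 (0.11) turned, and without numbers 3 and 4, SIRB (-0.25) and AT4G13680 (-0.022). Leaving out 1 sample gave -0.062 to 0.33 for SIRB, -0.095 to 0.21 for Cpn60beta4, -0.016 to 0.35 for AT2G46850 and -0.070 to 0.23 for AT5G59400. The call of VTE6 was lost in averages of consecutive numbers, as deposited (0.70) or not, and with the pair as a block, and it held in each of the 12 fits without a single sample. How far dim probes such as SIRB lie above the array background is unknown, since no background measure was used here.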
